A study of Mus musculus with 2 samples.

Results

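The genes described here are 10 interferon-inducible GTPase genes: the guanylate-binding protein (GBP) genes Gbp2, Gbp3, Gbp4, Gbp5 and Gbp7, and the immunity-related GTPase (IRG) genes Igtp, Irgm1, Irgm2, Iigp1 and Ifi47. They were chosen by symbol, with earlier results of these data known, and all 10 were found among the 32285 genes measured. Single-cell RNA was measured in 2 mouse tumours, grown in the pancreas of the host from injected KPC cells, a mouse pancreatic cancer line. One tumour came from cells labelled KPC-shV, the hairpin control, and the other from cells labelled KPC-shZEB1, in which a hairpin was directed against Zeb1, a transcription factor of epithelial-mesenchymal transition. According to the study, the mice whose tumours were used for single-cell RNA were treated with gemcitabine. The sample labels name no drug, host age or host strain. Each group was 1 tumour in 1 library, so mouse, tumour, dissociation, library and hairpin cannot be told apart, and no test across tumours could be made. The intervals below cover counting error only.

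GBPs and IRGs are dynamin-like GTPases that cells make in response to interferon-gamma, in part through the transcription factor IRF1. Their products gather on the membranes of vacuoles that hold intracellular microbes, break them open and promote autophagy and inflammasome signalling. Among the IRGs, Irgm1, Irgm2 and Igtp encode regulators that guard the cell's own membranes, whereas Iigp1 and Ifi47 encode effectors that load onto the vacuole. In tumours they are commonly counted among the targets of interferon in malignant, stromal and myeloid cells alike.

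In the GENCODE annotation of GRCm38, the build that the deposited files use as mm10, 4 GBP genes lie side by side on the + strand of chromosome 3: Gbp5 at chr3:142493978-142522344, Gbp7 at chr3:142530342-142550149 (overlapping Gm43802 on the same strand), Gbp3 at chr3:142560026-142573209 and Gbp2 at chr3:142620602-142638008. Gbp4 lies on the - strand at chr5:105115767-105139586 and overlaps Gbp8 and Gbp9 on the same strand. Irgm1 lies at chr11:48861968-48871683 on the - strand and Ifi47 at chr11:49076587-49096974 on the + strand, inside the longer locus Olfr56. Igtp at chr11:58199556-58207591 and Irgm2 at chr11:58199618-58222782 overlap on the + strand. The counts of Gbp4, Gbp7, Ifi47, Igtp and Irgm2 are therefore less certain, since reads in a shared stretch cannot be given to 1 gene by strand. All 10 are protein-coding genes of closely related families, and reads that fit more than 1 copy equally well may be missing from the counts.

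RefSeq promoter windows, 250 bases before to 50 after the start on GRCm38.p6, were held for 8 of the 10 genes (9 windows, since Gbp3 has 2), but not for Gbp4 or Iigp1. The letters GAAANNGAAA on either strand are the core of an interferon-stimulated response element bound by IRF factors. They occurred in 7 of the 9 windows, from 7 of these 8 genes, against 3.44% of all 32851 windows. The STAT-type palindrome TTCNNNGAA occurred in 4 of the 9 windows (4 of 8 genes), against 8.30% of all windows. Both were found together in 4 of the 9 windows (4 of 8 genes), against 0.454%. No match to either was found for Ifi47 or in the second window of Gbp3. The 30 bases around the first kind of match are shown 5′ to 3′ on the strand of the gene because they are the sequence feature that most of these genes share. Capitals mark the matches. The Gbp7 window (chr3:142530273-142530302), the Gbp3 window (chr3:142559992-142560021) and the Igtp window (chr11:58199507-58199536) are upstream of the annotated gene. The Gbp2 window (chr3:142620594-142620623) and the Irgm1 window (chr11:48871428-48871457, - strand) touch a non-coding exon of a longer transcript, while the Gbp5 window (chr3:142496759-142496788) and the Irgm2 window (chr11:58214898-58214927) lie in an intron of one.
Gbp2: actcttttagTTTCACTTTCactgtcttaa
Gbp3: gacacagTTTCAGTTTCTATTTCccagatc
Gbp5: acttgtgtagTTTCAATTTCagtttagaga
Gbp7: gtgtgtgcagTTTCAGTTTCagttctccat
Irgm1: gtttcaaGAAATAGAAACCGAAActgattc
Igtp: ccatTTCTAGGAActGAAACTGAAAgctgt
Irgm2: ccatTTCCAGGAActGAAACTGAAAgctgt

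The chromosome 3 genes Gbp2, Gbp3, Gbp5 and Gbp7 carry the TTTC-type orientation, Gbp3 and Irgm1 carry 2 overlapping copies, and Igtp and Irgm2 hold both kinds of match within the printed stretch. The Igtp and Irgm2 stretches were identical at 29 of 30 bases. Of the type I interferon genes described further below, 10 of the 18 with a window also held GAAANNGAAA, as did 2 of 14 other interferon-gamma target genes. A match describes letters, and binding was not measured here.

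After filtering, 11398 cells of the library labelled KPC-shV (median 3720 UMIs, the molecules counted per cell) and 12104 of the library labelled KPC-shZEB1 (median 4252) were kept and clustered without the interferon genes. The clusters were named from marker genes, with "-like" added because the names were rebuilt here. The libraries shared 46 cell barcodes. Zeb1, the targeted gene, was not lower in these counts where its hairpin was named: its level in tumour-like cells was 167 CPM (UMIs of the gene divided by those of the class and scaled by 1000000) under the label KPC-shV and 187 CPM under the label KPC-shZEB1, a ratio of 1.12 (95% interval 1.08 to 1.16). Free RNA from other cells was not subtracted from this value, and T-like cells held 1383 and 1519 CPM of Zeb1. The paper shows a knockdown check in KPC cells and Zeb1 staining of tumours. Whether the knockdown held in this tumour cannot be told from these counts. All directions below are therefore between libraries as labelled, with the value of the library labelled KPC-shV first and that of the library labelled KPC-shZEB1 second, and ratios are the second over the first.

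The GTPase genes were higher in sum in the library labelled KPC-shZEB1 in all 9 cell classes compared. Together they took 0.0641% of all UMIs in the library labelled KPC-shV (64885 UMIs) and 0.109% in the library labelled KPC-shZEB1 (129223 UMIs). In tumour-like cells (1491 and 1447 cells) the summed level of the 10 genes was 578 and 1221 CPM, a ratio of 2.11 (2.08 to 2.15). In granulocyte-like cells (6870 and 4573 cells) it was 788 and 1717 CPM, a ratio of 2.18 (2.14 to 2.22).

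Monocyte-macrophage-like cells (1638 and 2536 cells) held 606 and 1007 CPM, a ratio of 1.66 (1.63 to 1.69), and fibroblast-like cells (361 and 381 cells) 461 and 846 CPM, a ratio of 1.84 (1.77 to 1.90). The lymphoid classes were lower in level. T-like cells (400 and 1277 cells) held 373 and 530 CPM, with a ratio of 1.42 (1.32 to 1.52), and NK-like cells (58 and 171 cells) 324 and 500 CPM, with a ratio of 1.54 (1.27 to 1.88). B-like cells (289 and 1226 cells) held the lowest levels, 156 and 377 CPM, and the highest ratio, 2.42 (2.07 to 2.83). Dendritic-like cells (90 and 292 cells) held 407 and 655 CPM, a ratio of 1.61 (1.47 to 1.77). The 5 dendritic-like cells with the most GTPase UMIs gave 32.0% and 13.3% of these UMIs, and without them the ratio was 1.93. Endothelial-like cells (147 and 82 cells) held the highest levels, 1866 and 2413 CPM, and the smallest ratio, 1.29 (1.24 to 1.35). Every one of these 9 intervals lay above 1.

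The members were next counted gene by gene, with a fold of at least 1.5 as the limit. Genes of at least 10 CPM on average and 30 UMIs in sum were those tested. In several classes a larger share of the members passed than of all genes. The members were chosen with earlier results of these data known, so these shares are a description. In tumour-like cells 10 of 10 were at least 1.5-fold higher in the library labelled KPC-shZEB1, while 4.62% of all genes tested were higher and 1.46% lower by that fold. In granulocyte-like cells it was 10 of 10, against 14.1% of all genes higher and 2.58% lower. The median gene there was itself shifted by 0.19 on the log2(CPM + 1) scale, and relative to it 8 of 10 members passed, with Ifi47 and Irgm2 at ratios of 1.35 and 1.38. The share of all genes passing relative to the median gene is not given. In monocyte-macrophage-like cells 6 of 10 passed, against 2.04% higher and 0.685% lower, and in fibroblast-like cells 5 of 10, against 3.36% and 2.55%.

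In B-like cells 10 of 10 passed (8.75% of all genes higher, 3.33% lower) and in dendritic-like cells 6 of 10 (7.12% and 5.65%). Of these, the intervals of Gbp3 in B-like cells (0.914 to 2.66) and Irgm1 in dendritic-like cells (0.951 to 2.70) included 1. In T-like cells 3 of 10 passed (4.67% and 1.88%), namely Gbp2, Gbp5 and Iigp1. In NK-like cells 4 of the 8 members tested passed (12.1% and 7.94%), where the interval of Igtp included 1 (0.791 to 6.93). In endothelial-like cells 2 of 10 passed, Gbp3 and Gbp5 (9.22% and 5.57%), a share nearer to that of all genes. No member tested was lower by 1.5-fold in any of the 9 classes. The one value below that limit was Irgm2 in NK-like cells, with 11 and 18 UMIs and a ratio of 0.632 (0.283 to 1.48), which was under the limit for testing.

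**Figure D1:**
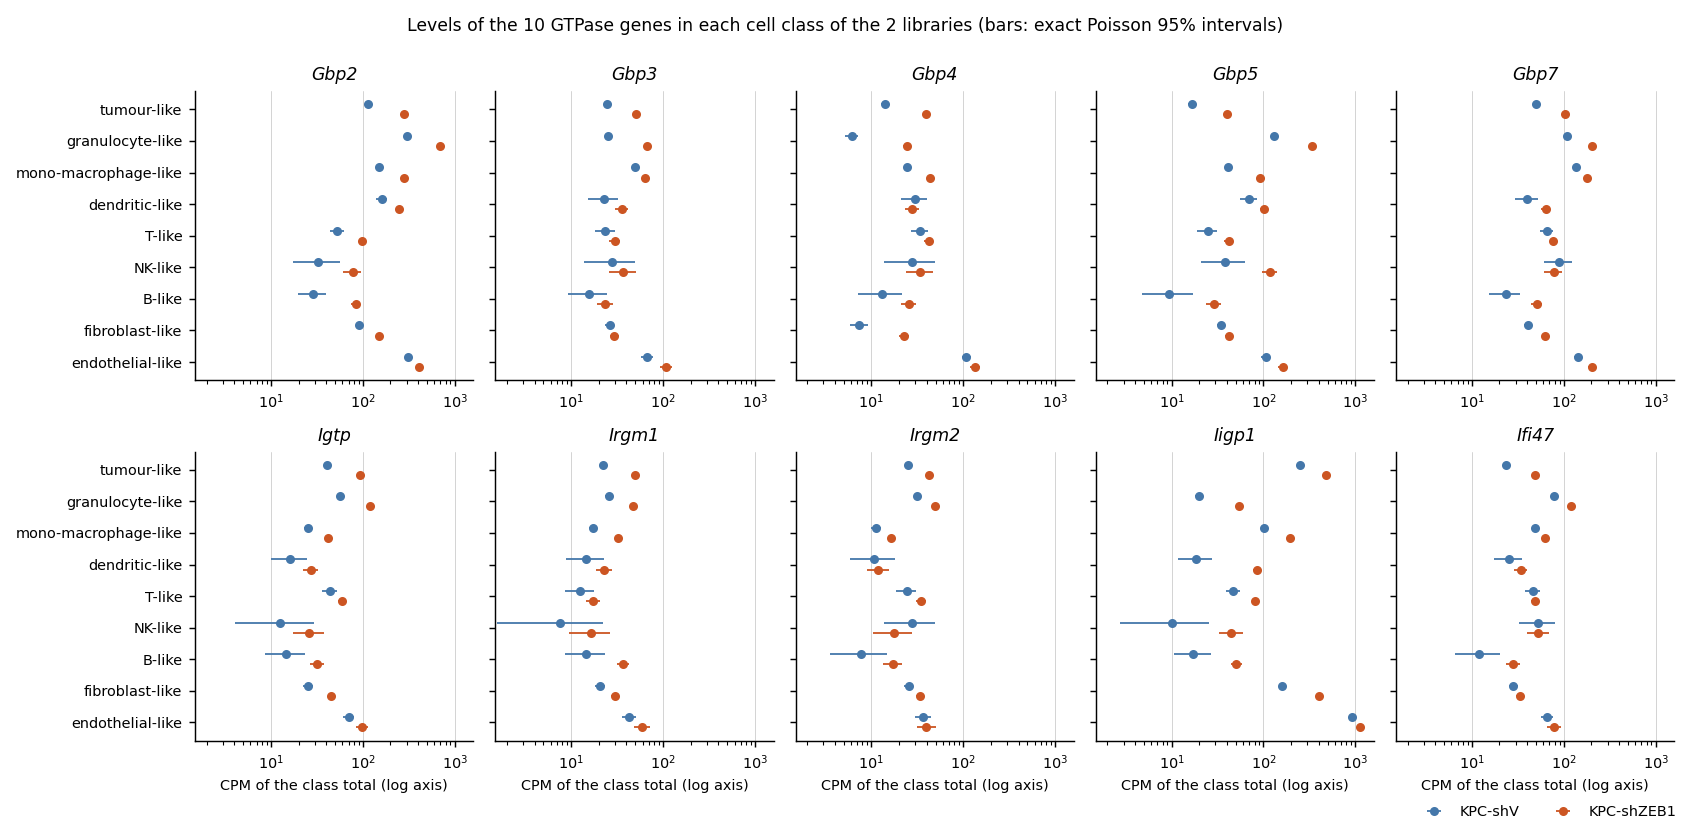
Level of each GTPase gene in CPM (log axis) in 9 cell classes, in blue for the library labelled KPC-shV and orange for that labelled KPC-shZEB1; points are class totals and bars exact Poisson 95% intervals. Orange points sit to the right of blue ones in most rows, and Iigp1 in endothelial-like cells reaches 914 and 1123 CPM.

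The order of the classes differed between the genes. Endothelial-like cells held the highest level of 8 of the 10 genes under the label KPC-shV and of 5 under the label KPC-shZEB1, and granulocyte-like cells held the highest of the others. The endothelial values rested on few cells. The 5 cells with the most GTPase UMIs gave 36.8% and 31.7% of the endothelial UMIs of these genes, and without them the summed level was 1261 and 1844 CPM, a ratio of 1.46. Iigp1 spanned the widest range between classes, whereas most neighbours in the order of Irgm1 and Irgm2 had overlapping intervals.

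Gbp2, whose product coats parasite vacuoles, was most abundant in endothelial-like cells (314 CPM) and granulocyte-like cells (306 CPM) in the KPC-shV-labelled library, whose intervals overlapped. In the library labelled KPC-shZEB1, granulocyte-like cells were first with 694 CPM and endothelial-like cells next with 408 CPM, without overlap. Monocyte-macrophage-like and tumour-like cells followed at 281 CPM each. The ratio was 2.26 (2.20 to 2.34) in granulocyte-like cells, 2.48 (2.39 to 2.57) in tumour-like cells, where the level was 113 and 281 CPM, and 1.88 (1.81 to 1.96) in monocyte-macrophage-like cells, where it was 149 and 281 CPM. Gbp2 was the member with the highest ratio in T-like cells, 1.87 (1.56 to 2.25), at 52.7 and 98.3 CPM. Its interval lay above 1 in 9 of 9 classes. Counts of intervals above 1, here and below, have no share of all genes beside them.

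Gbp5, whose product promotes assembly of the NLRP3 inflammasome, was highest in granulocyte-like cells. They held 129 and 338 CPM, above endothelial-like cells at 105 and 162 CPM, and all other classes held less. The granulocyte ratio was 2.62 (2.50 to 2.74). In monocyte-macrophage-like cells Gbp5 had the highest ratio of the 10 genes, 2.20 (2.05 to 2.37), at 41.4 and 91.1 CPM. In NK-like cells the level was 37.7 and 116 CPM, from 15 and 120 UMIs, with a ratio of 3.09 (1.80 to 5.69). The tumour-like values were 16.5 and 39.7 CPM, with a ratio of 2.40 (2.18 to 2.65). Gbp5 too was above 1 in 9 of 9 classes.

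Gbp4 was low in granulocyte-like cells, 6.13 CPM under the label KPC-shV against 24.4 CPM under the label KPC-shZEB1, and had the highest member ratio in that class, 3.98 (3.26 to 4.88). It was likewise the member with the highest ratio in fibroblast-like cells, 3.11 (2.41 to 4.06), at 7.32 and 22.8 CPM, and in tumour-like cells, 2.77 (2.50 to 3.08), at 14.1 and 39.0 CPM. Dendritic-like cells gave no such difference. Their Gbp4 level was 29.7 and 28 CPM, with an interval of 0.653 to 1.39.

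Gbp7, whose product helps to assemble the phagocyte NADPH oxidase, and Gbp3 had the smallest ratios of the 5 GBP genes in tumour-like and monocyte-macrophage-like cells. Gbp7 was highest in endothelial-like cells, 142 and 203 CPM, monocyte-macrophage-like cells, 137 and 179 CPM, and granulocyte-like cells, 110 and 202 CPM. Its ratio was 1.84 (1.74 to 1.94) in granulocyte-like cells and 2.07 (1.96 to 2.19) in tumour-like cells (50.5 and 105 CPM), but 1.31 (1.26 to 1.36) in monocyte-macrophage-like cells. In NK-like cells the ratio was 0.882 with an interval that spans 1 (0.586 to 1.35). Gbp3 had ratios of 2.67 (2.40 to 2.96) in granulocyte-like cells, above that of Gbp2 there, and 2.09 (1.92 to 2.27) in tumour-like cells (24.6 and 51.2 CPM). In monocyte-macrophage-like cells it was 1.27 (1.19 to 1.37), and in fibroblast-like cells 1.12, where the interval included 1 (0.953 to 1.32). In endothelial-like cells Gbp3 had the highest ratio of the 10 genes, 1.59 (1.30 to 1.96).

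Of the regulatory IRG genes, Irgm1 and Igtp had overlapping intervals in tumour-like cells, and Irgm2 lay below both. Irgm1 was at 22.2 and 49.5 CPM, a ratio of 2.23 (2.04 to 2.43). Igtp was at 40.8 and 93.3 CPM, a ratio of 2.28 (2.15 to 2.43). Irgm2 had the lowest tumour ratio of the 10 genes, 1.68 (1.54 to 1.83), at 25 and 41.9 CPM. Granulocyte-like cells held 57.1 and 120 CPM of Igtp, a ratio of 2.11 (1.96 to 2.27), and 25.7 and 47.7 CPM of Irgm1, a ratio of 1.86 (1.66 to 2.08). For Irgm2 the granulocyte ratio was 1.58 (1.42 to 1.75), at 31.2 and 49.1 CPM. In T-like cells Igtp reached 43.6 and 58.8 CPM and Irgm2 24.2 and 34.7 CPM, with intervals above 1 for both, while the interval of Irgm1 included 1 (0.944 to 2.10).

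Iigp1, the effector that ruptures vacuole membranes, lies at chr18:60376027-60392634 on the + strand and had an order of classes unlike that of Gbp2 and Gbp5. Endothelial-like cells came first with 914 and 1123 CPM, then tumour-like cells with 248 and 473 CPM, fibroblast-like cells with 160 and 397 CPM and monocyte-macrophage-like cells with 102 and 194 CPM. These 4 classes did not overlap with each other in either library. Granulocyte-like cells held only 19.8 and 53.9 CPM, and gave no Iigp1 ratio once the estimated free RNA of other cells was subtracted.

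The Iigp1 ratio was 1.91 (1.86 to 1.96) in tumour-like cells, 2.73 (2.42 to 3.07) in granulocyte-like cells and 2.48 (2.35 to 2.63) in fibroblast-like cells. It was highest in dendritic-like cells, 4.68 (3.10 to 7.40), from 24 and 382 UMIs, and lowest in endothelial-like cells, 1.23 (1.16 to 1.30). Without the 5 cells with the most GTPase UMIs, the dendritic values were 14.1 and 66.6 CPM and the endothelial values 628 and 868 CPM.

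Ifi47, the other effector, had intervals above 1 in only 5 of the 9 classes. Granulocyte-like cells held 77.7 and 120 CPM, a ratio of 1.54 (1.44 to 1.65), the lowest of the 10 genes there. In tumour-like cells the level was 23.4 and 48.1 CPM, a ratio of 2.05 (1.89 to 2.24). Monocyte-macrophage-like cells had a ratio of 1.30 (1.21 to 1.39). In T-like cells (46.2 and 48.6 CPM) and NK-like cells (52.8 and 52.4 CPM) the intervals included 1.

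**Figure D2:**
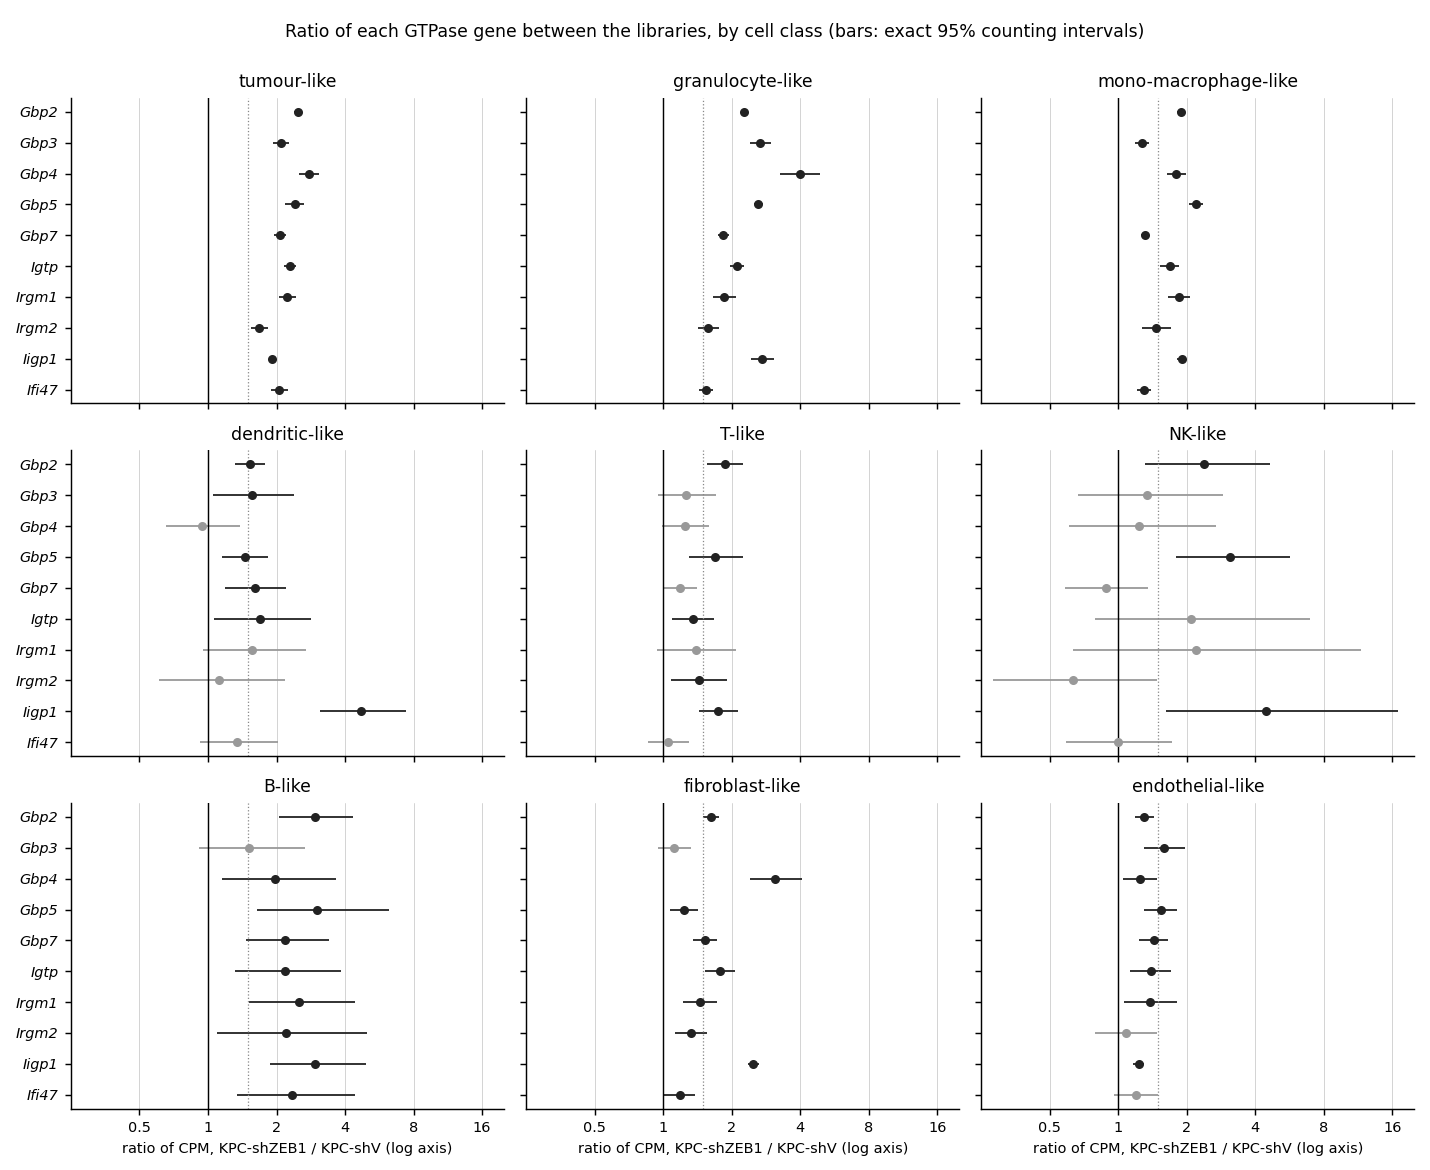
Ratio of CPM, library labelled KPC-shZEB1 over library labelled KPC-shV (log axis), for each GTPase gene in 9 cell classes; bars are exact 95% counting intervals, grey where they include 1, and the dotted line is a ratio of 1.5. All 10 intervals lie above 1 in tumour-like, granulocyte-like and monocyte-macrophage-like cells, while the T-like and endothelial-like panels sit closer to 1 for most genes and the NK-like ratios spread from 0.632 to 4.44. The share of all genes with an interval above 1 is not given.

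The difference was present within clusters as well as in class totals. Of 39 clusters, 19 had at least 50 cells in each library. In 18 of these the interval of the summed GTPase ratio lay above 1, in 15 the ratio was at least 1.5, and in none was the interval below 1. The exception was the sub-cluster of regulatory T-like cells, led by Frmd5 and Foxp3, with 738 and 797 CPM and a ratio of 1.08 (0.91 to 1.28).

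Among tumour-like cells, the cluster led by Prg4 and Cntn5 (544 and 246 cells) held 597 and 845 CPM, a ratio of 1.42 (1.37 to 1.46), and was named fibroblast-like under another naming rule. Another tumour cluster, led by Zfp804b and Ralyl, was found almost entirely in the library labelled KPC-shZEB1, with 9 and 224 cells and a summed level of 359 and 1772 CPM. It gave 22.2% to 41.0% of the tumour-like UMIs of each gene in that library. Without it, and with it every other cluster found almost only in 1 library, 10 of 10 members still reached 1.5-fold in tumour-like cells, with ratios from 1.53 for Irgm2 to 2.72 for Gbp4, and the summed ratio was 1.86. When each library was clustered and named alone, 7 of 10 did, and Irgm1, Ifi47 and Irgm2 were at 1.49, 1.35 and 1.25. The share of all genes passing is not given for either setting.

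Granulocyte-like clusters covered a wide range of levels. The cluster led by Rsad2 and Ifit genes, classical type I interferon targets, held the highest summed level of any cluster of this size, 2615 and 4333 CPM (447 and 152 cells, ratio 1.66, 1.57 to 1.74). Among granulocyte-like clusters of this size, the one led by Il23a and Car4 (1084 and 924 cells) followed with 1287 and 2659 CPM, a ratio of 2.07 (1.99 to 2.14). The clusters led by F10 and Cxcl3 and by Fnip2 and Ero1l were lowest, at 336 and 544 CPM and at 291 and 564 CPM. The share of granulocyte-like cells in the Rsad2 cluster was smaller in the library labelled KPC-shZEB1, and without that cluster the 10 genes had ratios from 1.83 to 4.46.

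The dendritic-like clusters did not share one direction. The cluster led by Ccl17 and Htr7 (53 and 190 cells) held 297 and 660 CPM, a ratio of 2.23 (1.96 to 2.54). The cluster led by Strip2 and Ccl22 (37 and 102 cells) held 649 and 642 CPM, a ratio of 0.99 (0.86 to 1.14). Within the second, Gbp2 was at 248 and 254 CPM and Gbp5 at 177 and 175 CPM, whereas Gbp4 was at 75.3 and 36.9 CPM, a ratio of 0.490 (0.305 to 0.798), and Iigp1 at 12.1 and 47.9 CPM.

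T-like subsets were compared by the same sums. CD4 T-like cells (106 and 404 cells) held 383 and 588 CPM, a ratio of 1.54 (1.33 to 1.78). Their cluster led by Dgki and Dthd1 (39 and 85 cells) had a ratio of 1.19 (0.91 to 1.57). The intervals of the other CD4 T-like clusters lay above 1. CD8 T-like cells (120 and 417 cells) held 334 and 473 CPM, a ratio of 1.42 (1.27 to 1.59). Their clusters differed. The one led by Gm156 and Atp2b2, with Prf1 also among its leading genes (36 and 134 cells), held 320 and 344 CPM. That is a ratio of 1.08 (0.86 to 1.35), whereas the intervals of the other CD8 T-like clusters lay above 1. Gamma-delta T-like cells (32 and 57 cells), with 65 and 262 UMIs of the 10 genes, held 367 and 823 CPM, a ratio of 2.24 (1.70 to 2.99). In CD4 T-like cells the highest member ratio was that of Gbp2, 3.39 (2.12 to 5.73), while in CD8 T-like cells it was that of Iigp1, 2.51 (1.74 to 3.73).

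**Figure D3:**
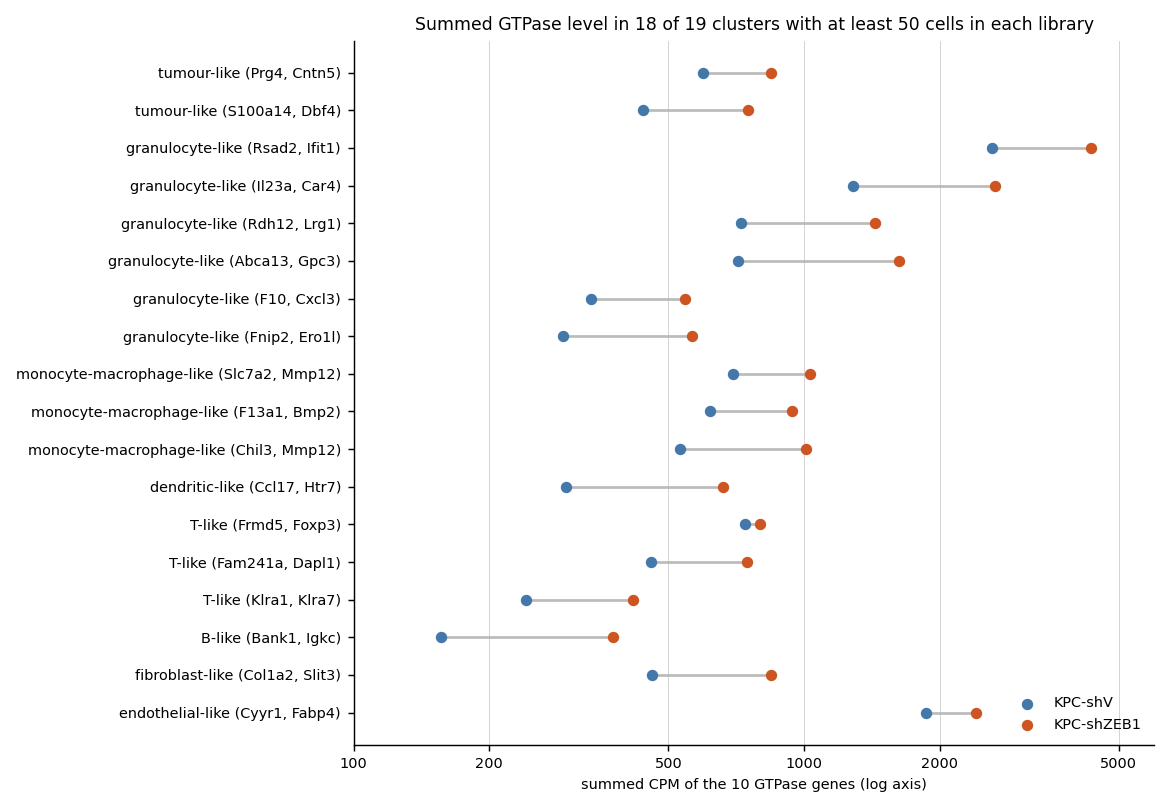
Summed CPM of the 10 GTPase genes (log axis) in 18 of the 19 clusters with at least 50 cells in each library; each row is a cluster, named by its class and 2 leading genes, and the grey line joins the blue point of the library labelled KPC-shV to the orange point of that labelled KPC-shZEB1. Orange lies to the right of blue in every row, by the least in the Foxp3 cluster.

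The higher level was spread over many cells in most classes. With each cell thinned to 1000 UMIs, a UMI of at least 1 of the 10 genes was seen in 28.6% of tumour-like cells under the label KPC-shV (exact binomial interval 26.4 to 31.0) and in 47.4% of those under the label KPC-shZEB1 (44.8 to 50.02). Without thinning the shares were 83.4% and 92.3%. In granulocyte-like cells the thinned shares were 31.8% and 52.7%, against 55.5% and 76.2% unthinned. No class is known to lack these genes. The lowest thinned shares were those of B-like cells, 12.8% and 30.3%, with median depths of 3732 and 3418 UMIs, against 23798 and 23800 UMIs in tumour-like cells.

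Free RNA from other cells adds to these values. An estimate from marker genes of other classes put 17.6% and 17.4% of the tumour-like GTPase level, 11.6% and 12.4% of the granulocyte-like level and 12.6% and 16.2% of the monocyte-macrophage-like level down to such background. For T-like cells it was 20.5% and 31.5%, and for B-like cells 50.9% and 49.5%. Monocyte-macrophage markers moved with the libraries in every class. All 10 were detected in tumour-like cells, at a summed 646 and 1725 CPM, and in granulocyte-like cells, at 909 and 2404 CPM, whereas granulocyte markers in tumour-like cells were at 1295 and 637 CPM. The part of these markers in the GTPase difference was not tested. With the estimated background subtracted, 10 of 10 members stayed at least 1.5-fold higher in tumour-like cells, with ratios from 1.76 to 2.89, and 6 of 10 in monocyte-macrophage-like cells. In granulocyte-like cells it was 9 of 9, since Iigp1 gave no ratio after the subtraction. In T-like cells 2 of 10 stayed, Gbp2 and Gbp5, against 3 before, and the summed ratio fell from 1.42 to 1.27. The share of all genes passing after the subtraction is not given, so these counts have no background beside them.

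The genes that carry the interferon-gamma signal were at least 1.5-fold higher less often than the GTPase genes in tumour-like, granulocyte-like, monocyte-macrophage-like and T-like cells. Ifng, the ligand, had a ratio of 1.15 (1.02 to 1.29) in T-like cells, where it was at 138 and 158 CPM, and of 1.93 (1.24 to 3.13) in NK-like cells, where it was at 60.3 and 116 CPM. The receptor genes Ifngr1 and Ifngr2 each had a ratio of 1.15 in tumour-like cells.

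Irf1, which binds GAAA-type elements, had ratios of 1.42 (1.38 to 1.46) in tumour-like cells, 1.73 in both granulocyte-like and monocyte-macrophage-like cells and 1.20 (1.06 to 1.36) in T-like cells. Socs1, the feedback inhibitor, had tumour-like levels of 26.7 and 36.1 CPM, with a ratio of 1.35 (1.24 to 1.47). Of the signalling genes tested, 2 of 11 in tumour-like cells, 3 of 11 in granulocyte-like cells, 1 of 13 in monocyte-macrophage-like cells and 0 of 12 in T-like cells were at least 1.5-fold higher. In the same order, the shares of all genes tested were 4.62%, 14.1%, 2.04% and 4.67%.

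Other members of the same GTPase families were mostly higher as well. In tumour-like cells 10 of 12 tested were at least 1.5-fold higher (4.62% of all genes), with ratios from 1.16 for Irgq to 2.77 for Gm12185. It was 4 of 5 in granulocyte-like cells (14.1% of all genes), 7 of 9 in monocyte-macrophage-like cells (2.04%) and 4 of 9 in T-like cells (4.67%). Several of these are close paralogs of one another, so their counts are uncertain.

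Other targets of interferon-gamma, such as MHC class II and chemokine genes, had medians between those of the GTPase genes and of all genes tested in tumour-like, granulocyte-like and monocyte-macrophage-like cells, while in T-like cells their median was near that of all genes. In tumour-like cells 13 of 21 tested were at least 1.5-fold higher and none lower by that fold (4.62% and 1.46% of all genes). Their median difference in log2(CPM + 1) was 0.74, against 1.08 for the 10 GTPase genes and 0.01 for all genes tested. H2-Ab1, an MHC class II chain, had the highest ratio, 2.64 (2.56 to 2.72), and Upp1, a uridine phosphorylase, the lowest, 0.892. In granulocyte-like cells 12 of 19 were higher (14.1% of all genes), with a median of 0.66, against 1.12 for the GTPase genes and 0.19 for all. Cd74, the MHC class II invariant chain, stood at 252 and 856 CPM there, while Nos2, the inducible nitric oxide synthase, was lower, at 59.2 and 23.1 CPM. Free RNA from other cells was not subtracted for this list, and its part in these values was not tested. H2-Ab1 also had the largest difference of the list in T-like cells, 1.77 in log2(CPM + 1). B-like cells made up 2.54% and 10.1% of the cells kept. In monocyte-macrophage-like cells 5 of 21 were higher (2.04% of all genes), with a median of 0.40 against 0.77 for the GTPase genes and 0.01 for all. In T-like cells 4 of 19 were higher and 1, Upp1, was lower (4.67% and 1.88% of all genes), with a median of 0.08 against 0.43 and 0.04.

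No gene tested of the type I interferon response was at least 1.5-fold higher in tumour-like, granulocyte-like, monocyte-macrophage-like or fibroblast-like cells. In tumour-like cells 0 of 20 were at least 1.5-fold higher and 3 were lower by that fold (4.62% and 1.46% of all genes), with a median of -0.09. Ifit3, an antiviral protein gene, was at 20.6 and 9.30 CPM, a ratio of 0.452 (0.395 to 0.516). The highest ratio was 1.42, for Zbp1, a nucleic acid sensor. In granulocyte-like cells 0 of 21 were higher and 3 lower (14.1% and 2.58% of all genes), with a median of -0.03. The cluster led by Rsad2 and Ifit genes held 447 and 152 of those cells, and this list was not recomputed without it. In monocyte-macrophage-like cells 0 of 21 were higher and 0 lower (2.04% and 0.685% of all genes), with a median of 0.11. In fibroblast-like cells 0 of 19 were higher and 6 lower (3.36% and 2.55%), with a median of -0.20. In B-like, NK-like and endothelial-like cells some were. In B-like cells 5 of 13 were higher and 0 lower (8.75% and 3.33% of all genes), with a median of 0.42. In NK-like cells 3 of 10 were higher and 1 lower (12.1% and 7.94%), with a median of 0.40. In endothelial-like cells 5 of 18 were higher and 0 lower (9.22% and 5.57%), with a median of 0.17. In T-like cells 1 of 16 was higher and 1 lower (4.67% and 1.88%, median -0.15), and in dendritic-like cells 2 of 14 higher and 1 lower (7.12% and 5.65%, median -0.16). Granulocyte markers were also lower in tumour-like cells, at 1295 and 637 CPM, and in fibroblast-like cells, at 1481 and 695 CPM. Free RNA from other cells was not subtracted for the type I list, and its part in these values was not tested.

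Few autophagy and inflammasome genes, whose products act with the GTPases, differed by 1.5-fold. In tumour-like cells 1 of 16 was at least 1.5-fold higher (4.62% of all genes), Casp1, the inflammatory caspase, at 16.7 and 26.7 CPM. In granulocyte-like cells it was again Casp1 alone (14.1% of all genes were higher), at 20.1 and 31.9 CPM. Gabarap, a membrane-conjugated autophagy protein gene, had a ratio below 1 in all 9 classes. It was lower by over 1.5-fold in granulocyte-like cells, at 952 and 583 CPM, a ratio of 0.613 (0.597 to 0.629), and in monocyte-macrophage-like cells, at 575 and 380.2 CPM, a ratio of 0.661 (0.646 to 0.677). In the other classes the ratio ran from 0.677 in T-like cells to 0.873 in NK-like cells, where the interval included 1 (0.668 to 1.15). The median of the list was 0.03 in tumour-like cells (0.01 for all genes tested), -0.07 in granulocyte-like cells (0.19 for all) and -0.06 in monocyte-macrophage-like cells (0.01 for all).

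**Figure D4:**
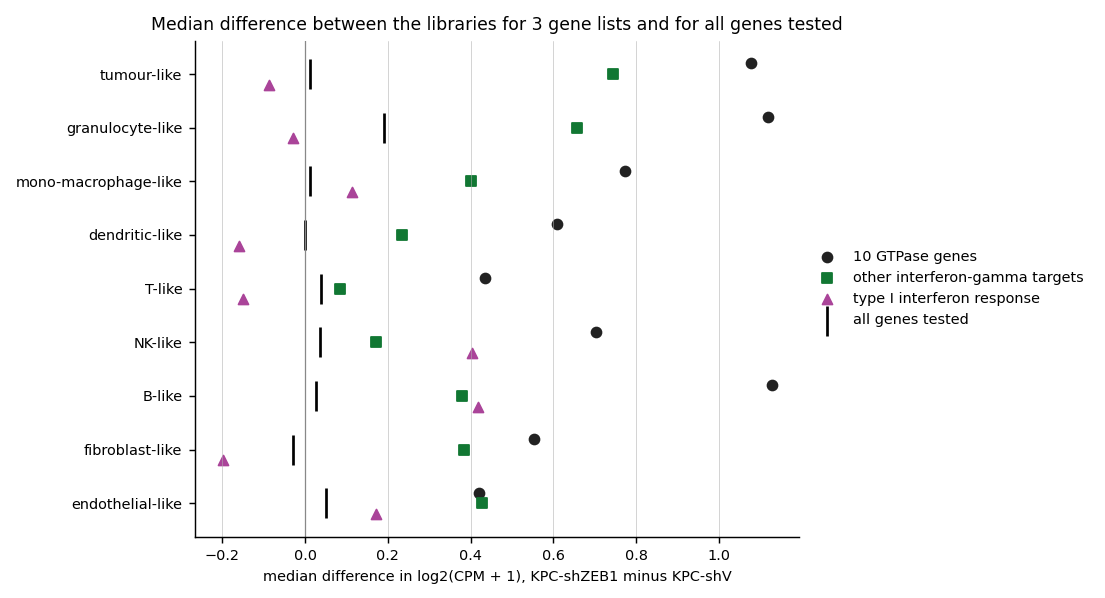
Median difference in log2(CPM + 1), library labelled KPC-shZEB1 minus library labelled KPC-shV, for the 10 GTPase genes (circles; 8 of them in NK-like cells), other interferon-gamma targets (squares), the type I interferon response (triangles) and all genes tested (bars) in 9 cell classes. The GTPase genes lie at 1.08 in tumour-like and 1.12 in granulocyte-like cells, where the type I list lies at -0.09 and -0.03. The granulocyte-like values include the cluster led by Rsad2 and Ifit genes, which held 447 and 152 cells. Free RNA from other cells was not subtracted from any of these medians.

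Across 49 sums of 1 cluster in 1 library with at least 50 cells each, the genes whose level followed the summed GTPase level most closely, of 9014 compared, were Cxcl10 (Pearson r = 0.835), Irf1 (0.779), Dtx3l (0.737), Olfr56 (0.694) and Zbp1 (0.691). These points share 2 libraries and their depth, so r is a description. Olfr56 spans chr11:48978889-49135387 and contains Ifi47 on the same strand, so their reads overlap. Among the members themselves, the 45 pairwise r values ran from -0.11 to 0.84 with a median of 0.58. The highest were those of Gbp7 with Gbp3 (0.842) and of Irgm2 with Igtp (0.841), a pair whose annotated loci overlap, and the lowest was that of Iigp1 with Gbp5 (-0.112).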

How the data were processed

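Single-cell 3′ libraries (10x v3.1) of 2 tumours, 1 per group, were used. The deposited values are raw UMI counts per gene and barcode, made by the authors with Cell Ranger 7.0.1 on mm10 per the labels. How Cell Ranger treated intronic reads is not given in the sources used here. Barcodes were dropped if they had under 500 genes, UMIs outside 1000 to 60000, or over 15% of UMIs from mitochondrial genes, and those with a Scrublet score above 0.2 were removed as doublets (315 and 343). Filtering removed 881 and 824 barcodes of 12594 and 13271, which held 130941086 and 143461224 UMIs. Clustering used scanpy 1.11.5 and Leiden (leidenalg 0.10.2), with interferon and GTPase genes left out of the 3000 variable genes. Classes were named from fixed markers, and T and NK cells were clustered again. Counts were summed per class and library. Exact Poisson, binomial and ratio intervals (95%, scipy 1.17.1) cover counting error only. Medians use log2(CPM + 1). The ratio intervals were checked only on simulated independent Poisson counts. That check cannot show how they behave where a few cells hold many of the UMIs. The 10 genes were fixed by symbol. Other genes were named from lists: 6 signalling genes and, per list and class described, the largest and smallest ratio, plus the 5 genes most alike. A signalling gene and a tumour-like cluster that would be named this way are not reported here. Members and lists were chosen with earlier results of these data known. Promoter sequences are from RefSeq (GRCm38.p6) and positions from GENCODE M21.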

Additional observations from a re-analysis of the deposited data

Results flagged for a closer look

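Barcodes left out of the classes above also carried the GTPase genes, and their summed level was higher in the library labelled KPC-shZEB1 in each of 4 such sets. In barcodes above 60000 UMIs (289 and 217) it was 482 and 1074 CPM, a ratio of 2.23 (2.18 to 2.28). In barcodes below the gene or UMI minimum (511 and 486) it was 467 and 835 CPM, a ratio of 1.79 (1.49 to 2.16). In barcodes above the mitochondrial limit only (81 and 121) it was 377 and 610 CPM, a ratio of 1.62 (1.27 to 2.07). In barcodes removed as doublets (315 and 343) it was 545 and 1022 CPM, a ratio of 1.88 (1.78 to 1.98).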

How the results depend on the processing

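The median difference in log2(CPM + 1) over the 10 genes was above 0 under every alternative run, in each of the 9 classes. In tumour-like cells it was 1.08 as reported, and left its counting interval with a lower cell filter (0.97), each library clustered alone (0.77), coarser clustering (0.87), naming by mean log2 ratio (0.97), a mean over cells (0.92), 10 CPM added (0.91) and, chosen after seeing the data, without clusters found almost only in 1 library (0.87). In granulocyte-like cells it was 1.12, and 1.03 with background RNA subtracted, 0.93 relative to the median gene, 1.02 with 10 CPM added and, chosen after seeing the data, 1.29 without the cluster led by type I interferon genes. In monocyte-macrophage-like cells it was 0.77, and 0.60 with 10 CPM added. In T-like cells it was 0.43 and stayed within its interval, between 0.30 and 0.48. The causes of these shifts were not tested. In NK-like cells, the class with the fewest cells, the range was 0.23 to 0.93. Leaving out barcodes that both libraries hold moved no median of these 4 classes out of its interval. Of 696 other values, 582 stayed within the counting interval of the reported value, 114 did not, and 0 called values changed sign. No paired analysis was possible because each group is 1 library, and no replicate could be left out. Depth limits the B-like and NK-like values, where most of the genes have under 30 UMIs in the library labelled KPC-shV, and the dendritic-like values, where several do.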
